A study of Rattus norvegicus with 138 samples.

Results

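Adrenergic receptors are the cell-surface proteins through which noradrenaline and adrenaline act, and 7 of the 32883 genes in the deposited tables were read here as this family. They were chosen by name: Adra1a, Adra1b and Adra1d of the alpha-1 class, Adra2a, Adra2b and Adra2c of the alpha-2 class, and Adrb1 of the beta class. They were measured by RNA sequencing of the nucleus of the solitary tract (NTS), the caudal ventrolateral medulla (CVLM) and the rostral ventrolateral medulla (RVLM) of female rats. The spontaneously hypertensive rat (SHR/NHsd, an inbred strain whose blood pressure climbs in early adulthood) was compared with the normotensive Wistar-Kyoto rat (WKY/NHsd), with no treatment given in the labels. Each of 46 rats gave 1 library per region, and the punches from the left and right side of a rat were pooled. Rats were taken at 8 wk (before hypertension, 5 WKY rats and 5 SHRs), 10 wk (onset, 4 and 5), 12 wk (onset, 3 and 6), 16 wk (established, 3 and 6) and 24 wk (chronic hypertension, 3 and 6). SHR and WKY are separate inbred strains, so the strain comparison cannot tell blood pressure apart from any other inherited difference between them.

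Alpha-1 receptors couple to Gq and phospholipase C and as a rule excite the cell that carries them. Alpha-2 receptors couple to Gi, lower cyclic AMP, and sit both on target cells and on the noradrenergic terminals themselves, where they hold back transmitter release. The beta-1 receptor couples to Gs and raises cyclic AMP. The 3 regions form the brainstem part of the baroreflex arc: the NTS receives the afferents from the baroreceptors, the CVLM inhibits the RVLM, and the RVLM drives sympathetic outflow. The NTS and the ventrolateral medulla hold the A2, C2, A1 and C1 groups of catecholamine neurons, and alpha-2 agonists given into the RVLM lower blood pressure.

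Levels below are CPM, a gene's count for each 1000000 counts of its library after TMM scaling of the library size. The totals ran from 5904570 to 17889406 counts per library with a median of 10143018. On these totals, before TMM scaling, 3 counts, taken here as the floor, equal 0.168 to 0.508 CPM. A count depends on transcript length, so levels were compared across libraries for 1 gene and not between different genes. Of the 7 genes, 5 passed the filter on low values in every region (Adra1a, Adra1b, Adra1d, Adra2a and Adra2c). Adra2b and Adrb1 did not, and they are given as values. Library names end in the number 1 or 2, whose meaning was not given. The 14 libraries of each region with the number 2 were all those of 10 wk, 3 of the 5 WKY libraries of 8 wk, and 1 SHR library each of 12 and 24 wk. The median totals of number 2 were 13959535 to 15219821 and those of number 1 were 9175683 to 9524498. All 10 wk libraries carry the number 2, so at 10 wk this number and age cannot be told apart. The CVLM libraries of WKY and SHR replicate 5 of 8 wk have 8 wk in their title and 10 wk as age label, and were kept at 8 wk. The region labels were set against noradrenergic and adrenergic marker genes. Th and Dbh, the enzymes that define noradrenaline synthesis, had medians of 137 and 68.1 CPM in the NTS, 140 and 84.7 CPM in the CVLM, and 53.9 and 9.45 CPM in the RVLM. Pnmt, which makes adrenaline, had medians of 3.64, 41.6 and 19.3 CPM in that order. Pnmt, a marker of the C1 neurons by which the RVLM is known, thus had a higher median in the CVLM than in the RVLM, and these genes do not by themselves bear out the RVLM label. In a bulk punch, fewer cells of a type and less RNA per cell cannot be told apart.

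The promoters of Adra1d, Adra2a and Adra2c, the receptors plotted over age below, are shown for orientation. Each is given as the 250 bases before the annotated start (RefSeq, build GRCr8, the strand of the gene). Of the 7 genes, 6 matched an entry. Capitals mark the GC box GGGCGG or its reverse complement CCGCCC, a short motif held by 30.5% of all 33469 windows of this length. Adra1d lies on the minus strand at chr3:139262332-139262581, Adra2a on the plus strand at chr1:263066530-263066779, and Adra2c on the minus strand at chr14:79697477-79697726.
Adra1d: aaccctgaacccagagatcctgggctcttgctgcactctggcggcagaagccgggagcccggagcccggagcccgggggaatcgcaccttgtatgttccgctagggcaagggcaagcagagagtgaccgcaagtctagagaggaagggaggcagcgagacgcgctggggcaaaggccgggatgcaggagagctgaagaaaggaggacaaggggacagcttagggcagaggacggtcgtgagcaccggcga
Adra2a: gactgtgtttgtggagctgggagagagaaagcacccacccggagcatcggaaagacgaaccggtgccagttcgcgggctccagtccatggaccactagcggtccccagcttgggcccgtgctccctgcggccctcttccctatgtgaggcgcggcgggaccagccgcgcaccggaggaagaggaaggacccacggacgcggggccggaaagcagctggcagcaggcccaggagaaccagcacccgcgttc
Adra2c: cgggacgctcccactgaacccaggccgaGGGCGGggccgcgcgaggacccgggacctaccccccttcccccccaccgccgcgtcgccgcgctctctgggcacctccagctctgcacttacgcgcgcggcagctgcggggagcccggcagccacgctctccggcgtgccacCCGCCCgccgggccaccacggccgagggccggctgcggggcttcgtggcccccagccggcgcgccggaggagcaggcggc
All 6 windows were rich in G and C, from 64.0% in Adra1d to 80.4% in Adra2c, against a median of 51.2% over all windows. The Adra2c window was at or above 99.1% of them. GC boxes were found in Adra2c (2 matches) and Adra2b (2 matches) and in none of the other 4 windows. Neither the cAMP response element TGACGTCA (1.59% of windows) nor the E-box CACGTG (5.59% of windows), both searched on both strands, was found in any of the 6.

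**Figure D1:**
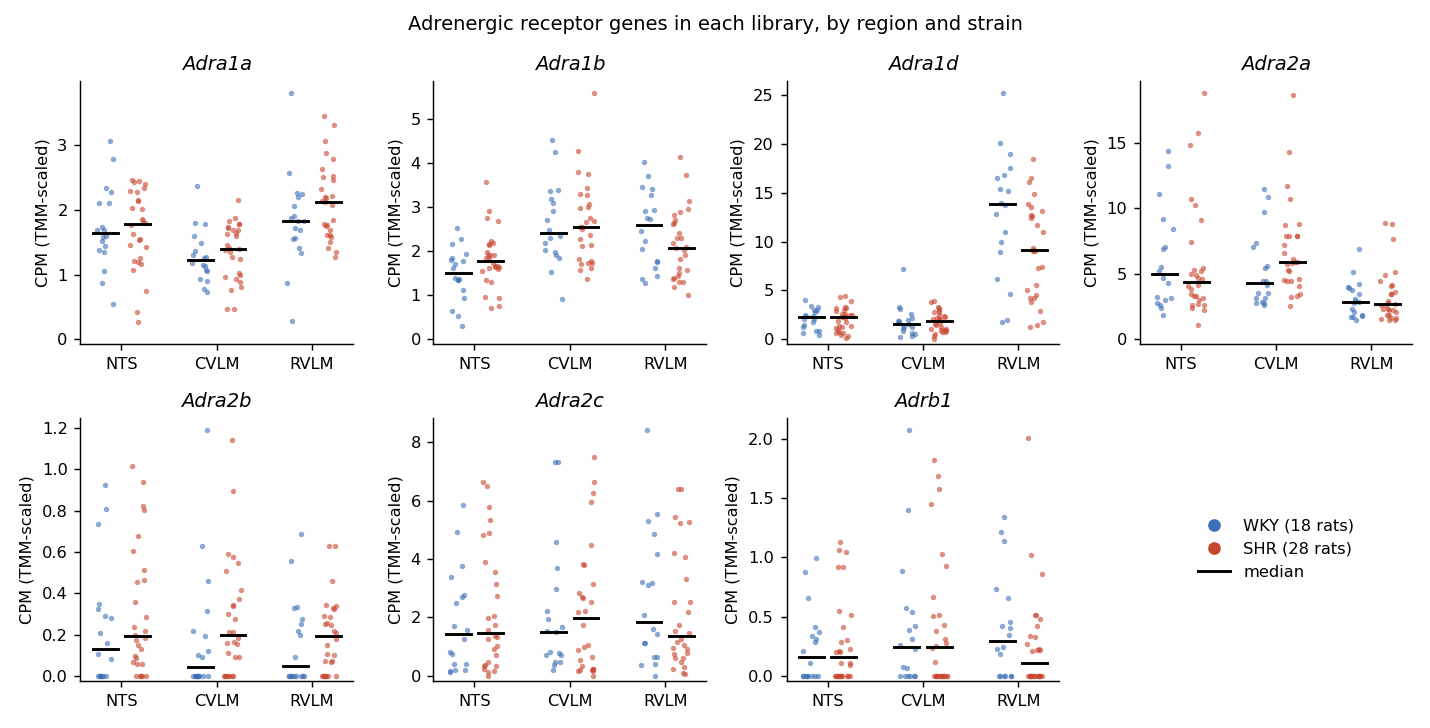
Level of each of the 7 receptor genes in CPM (vertical axis, linear, 1 panel per gene with its own scale) in the NTS, CVLM and RVLM of 18 WKY rats (blue) and 28 SHRs (red). Each point is 1 library and the black bars are medians, and Adra1d stands out by its RVLM values, with medians of 13.8 CPM in WKY rats and 9.11 CPM in SHRs.

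Most differences among the receptor genes lay between regions and not between strains. Adra1d, an alpha-1 receptor, was several times higher in the RVLM than in the NTS or CVLM in both strains, and Adra2a, the main alpha-2 receptor of brainstem noradrenergic neurons and their targets, was lower in the RVLM than in both other regions. By median, Adra1b was lowest in the NTS and Adra1a was lowest in the CVLM. In SHRs, Adra1b between NTS and RVLM and Adra1a between NTS and CVLM did not pass the test. Within a strain, 17 of the 30 region tests of the 5 genes had an adjusted p under 0.05 (edgeR quasi-likelihood test over all 3 regions with the rat as a block, Benjamini-Hochberg adjustment over all genes). Region differences were common among all genes: in WKY rats 61.6% of genes were called between NTS and RVLM, 51.8% between NTS and CVLM and 38.9% between CVLM and RVLM. In SHRs these shares were 63.9%, 54.9% and 44.7%. The 5 receptor genes gave 3, 2 and 3 calls in WKY rats and 3, 2 and 4 calls in SHRs, so their count was near that background. Their median absolute log2 fold change between regions was 0.50 against 0.20 over all genes, and it was also above that of all genes for strain averaged over ages (0.16 against 0.10) and strain at single ages (0.33 against 0.17), where 0 of 15 and 1 of 75 tests were called. The counts of the 3 regions came in 3 separate tables with no normalization, and it was not stated whether a batch adjustment named in the study's methods had been applied to each of them before deposit.

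Adra1d had a lowest, median and highest level of 1.75, 13.8 and 25.2 CPM in the RVLM of WKY rats, and of 1.3, 9.11 and 18.4 CPM in that of SHRs. In the NTS the same values were 0.397, 2.26 and 4.0 CPM in WKY rats and 0.176, 2.23 and 4.38 CPM in SHRs. In the CVLM they were 0.237, 1.59 and 7.19 CPM in WKY rats and 0, 1.83 and 3.91 CPM in SHRs. The RVLM range thus began within the ranges of the other regions and reached well past them, and the NTS and CVLM overlapped over most of their range. Adra1d was 5.72-fold lower in the NTS than in the RVLM of WKY rats (log2 fold change -2.52 ± 0.26 SE, adjusted p = 3.37e-14) and 4.70-fold lower in SHRs (-2.23 ± 0.20 SE, adjusted p = 3.52e-16). Against the RVLM, the CVLM was 7.06-fold lower in WKY rats (-2.82 ± 0.27 SE, adjusted p = 6.08e-15) and 4.85-fold lower in SHRs (-2.28 ± 0.21 SE, adjusted p = 3.82e-16). These 4 comparisons were the calls of this family that also met a stricter rule of an adjusted p under 0.01 and a log2 fold change of at least 1. Between NTS and CVLM, neighbours in the order of levels, the log2 fold change was 0.30 in WKY rats (95% interval -0.28 to 0.89, adjusted p = 0.405) and 0.05 in SHRs (-0.42 to 0.51, adjusted p = 0.881).

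Read rat by rat, Adra1d was higher in the RVLM than in the NTS in 44 of 46 rats and higher than in the CVLM in 44 of 46 rats. The order held in 30 of the 32 rats with library number 1 and in 14 of the 14 with number 2, for both pairs of regions. The same 2 rats were the exceptions to both. One was SHR replicate 1 of 16 wk, with 1.47 CPM in the RVLM, 2.64 CPM in the NTS and 2.15 CPM in the CVLM, and the other was WKY replicate 3 of 16 wk, with 1.96, 2.43 and 2.6 CPM. Their RVLM libraries also had the lowest and second lowest summed level of the 6 cholinergic and motor neuron markers among the 46 RVLM libraries (661 and 711 CPM, against a median of 1792 CPM and a highest value of 2591 CPM). That sum was 161 to 704 CPM in the NTS and 61.8 to 260 CPM in the CVLM, so these markers moved with Adra1d against the RVLM. All 5 markers of the list that were tested were higher in the RVLM than in either of the other regions, and the sixth, Mnx1, had a median of 0. Between NTS and CVLM they did not move with it: the same 5 were higher in the NTS in both strains (median log2 fold change 1.66 in WKY rats and 1.25 in SHRs), where Adra1d was not called. Across the 46 RVLM libraries, Pearson's r between log2 Adra1d and the log2 marker sum was 0.50, a description over libraries that share strain, age and dissection. Low Adra1d did not always go with a low sum. The RVLM library lowest in Adra1d, SHR replicate 3 of 8 wk with 1.3 CPM, had a sum of 1948 CPM, rank 36 of 46 from the lowest. WKY replicate 3 of 24 wk, with 1.75 CPM of Adra1d, had 1632 CPM. The part of these markers in the Adra1d difference was not tested. Without these 2 rats, the log2 fold change of Adra1d against the RVLM was -2.64 (NTS) and -3.01 (CVLM) in WKY rats, and -2.30 (NTS) and -2.36 (CVLM) in SHRs, a fit chosen after the data were seen.

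**Figure D2:**
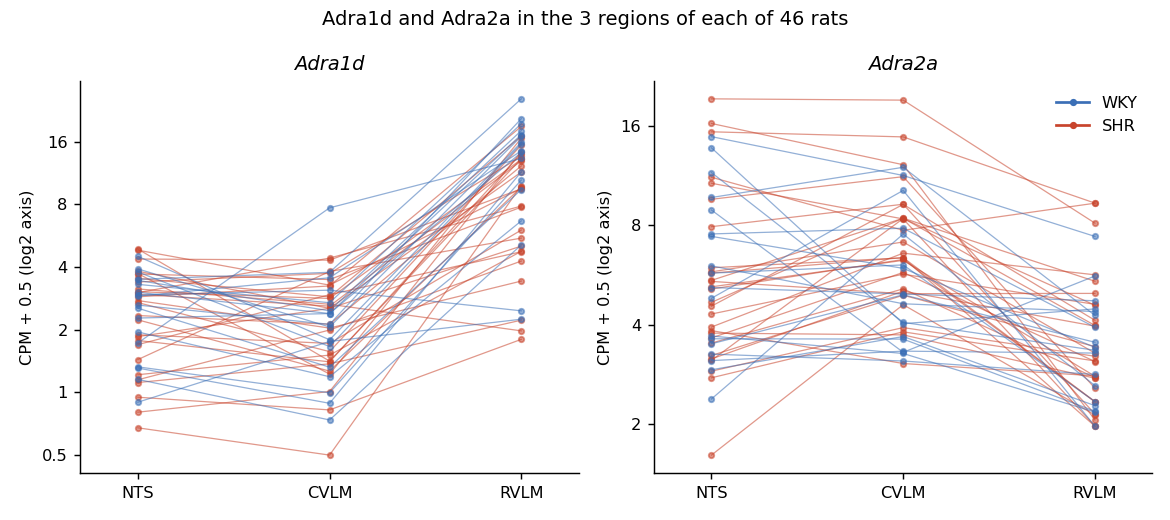
Adra1d (left) and Adra2a (right) in the NTS, CVLM and RVLM of each of 46 rats. The vertical axis is CPM + 0.5 on a log2 scale, each line joins the 3 libraries of 1 rat, blue is WKY and red is SHR. Adra1d rises towards the RVLM in 44 of 46 rats, while Adra2a falls from the CVLM to the RVLM in 42 of 46.

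Adra1b, an alpha-1 receptor found widely in the brain, was lowest in the NTS, with a median of 1.69 CPM over 46 libraries, against 2.53 CPM in the CVLM and 2.21 CPM in the RVLM. The ranges overlapped (0.298 to 3.58 CPM in the NTS, 0.910 to 5.6 CPM in the CVLM and 1.01 to 4.14 CPM in the RVLM). It was lower in the NTS than in the CVLM in WKY rats (log2 fold change -0.90, adjusted p = 8.07e-06) and in SHRs (-0.54, adjusted p = 0.000404), and in 37 of 46 rats. Against the RVLM, the NTS was lower in WKY rats (-0.78, adjusted p = 6.71e-05), while in SHRs the value was -0.23 (adjusted p = 0.135). The test of that difference between the strains gave 0.56 on the log2 scale (adjusted p = 0.228, with an unadjusted value under 0.05). Between CVLM and RVLM the log2 fold change was 0.12 in WKY rats (adjusted p = 0.632) and 0.31 in SHRs (adjusted p = 0.0465). Refitted by limma voom, the latter had an adjusted p of 0.0418 with all rats and was not called in 17 of 46 leave-one-out fits, each without an SHR. Oligodendrocyte markers moved with region too: 6 of 6 were lower in the NTS, where their sum was 18922 to 47767 CPM against 38740 to 75269 CPM in the CVLM, and so did endothelial markers, with 4 of 4 lower in the NTS than in both other regions in both strains, and those of pericytes and vascular smooth muscle, with 3 or 4 of 5 lower. A list of general neuron markers differed by region as well. Set against the RVLM, the NTS had 4 of 5 lower and 1 of 5 going the other way, in both strains. Set against the CVLM, it had 2 of 5 lower in WKY rats and 4 of 5 lower in SHRs, with 0 going the other way. Their sum was 3087 to 4877 CPM in the NTS, 4465 to 8368 CPM in the CVLM and 4864 to 8860 CPM in the RVLM. The parts of all these cells in the Adra1b differences were not tested.

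Adra1a, the third alpha-1 receptor, was highest in the RVLM (median 1.89 CPM, range 0.285 to 3.82 CPM), then the NTS (1.68 CPM, 0.268 to 3.06 CPM), then the CVLM (1.33 CPM, 0.472 to 2.38 CPM). The CVLM was lower than the RVLM in WKY rats (log2 fold change -0.57, adjusted p = 0.0093) and SHRs (-0.68, adjusted p = 3.48e-05), and in 38 of 46 rats. The neighbours NTS and RVLM differed in SHRs (-0.38, adjusted p = 0.0127), with a value of -0.11 in WKY rats (adjusted p = 0.604). The NTS was higher than the CVLM in WKY rats (0.46, adjusted p = 0.0307), and the value in SHRs was 0.30 (adjusted p = 0.0687). By limma voom the WKY difference had an adjusted p of 0.0366 with all rats and was not called in 7 of 46 leave-one-out fits, each without a WKY rat. The cholinergic and motor neuron markers followed the same order of RVLM, NTS and CVLM, with 5 of 5 tested markers called in that direction in every pair of regions and both strains, and their part in the Adra1a differences was not tested.

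Adra2a, which serves as an autoreceptor on noradrenergic cells and as a receptor on their targets, had a lowest, median and highest level of 1.89, 4.97 and 14.4 CPM in the NTS of WKY rats and of 1.11, 4.41 and 18.8 CPM in that of SHRs. In the CVLM the values were 2.61, 4.28 and 11.5 CPM in WKY rats and 2.56, 5.89 and 18.7 CPM in SHRs. In the RVLM they were 1.47, 2.89 and 6.91 CPM in WKY rats and 1.47, 2.66 and 8.85 CPM in SHRs. The ranges overlapped at their lower ends, and the levels above 8.85 CPM all belonged to the NTS or CVLM. Against the RVLM, Adra2a was higher in the NTS (log2 fold change 0.81 ± 0.19 SE, adjusted p = 0.000139 in WKY rats, and 0.66 ± 0.15 SE, adjusted p = 6.92e-05 in SHRs). It was also higher in the CVLM than in the RVLM (0.79 ± 0.19 SE, adjusted p = 0.000408, and 0.99 ± 0.15 SE, adjusted p = 1.73e-08). The CVLM exceeded the RVLM in 42 of 46 rats and the NTS exceeded the RVLM in 34. Between NTS and CVLM the value was 0.02 in WKY rats (adjusted p = 0.934) and -0.33 in SHRs (adjusted p = 0.0409), and the latter was not called by limma voom (adjusted p = 0.0557). The order of NTS and CVLM also went with library number, since the NTS was higher in 7 of 32 rats with number 1 and in 11 of 14 with number 2.

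The catecholamine genes differed between regions in the same direction as Adra2a. Of the 10 genes for making, storing and clearing the ligands, 9 were tested in all regions. In WKY rats 8 were higher and 0 lower in the CVLM than in the RVLM, and 7 were higher and 2 lower in the NTS than in the RVLM. Dbh had a log2 fold change of 3.23 between NTS and RVLM in WKY rats and of 2.31 in SHRs, and Slc6a2, the noradrenaline transporter, had medians of 8.27, 7.38 and 1.79 CPM in the NTS, CVLM and RVLM. The sum of the noradrenergic and adrenergic markers was 137 to 372 CPM in the NTS, 171 to 454 CPM in the CVLM and 27.1 to 332 CPM in the RVLM. Within a region, r between log2 Adra2a and that log2 sum was 0.25, 0.10 and 0.09 in the NTS, CVLM and RVLM (46 libraries each, sharing strain and age groups), and the part of these cells in the Adra2a difference was not tested.

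Adra2c, an alpha-2 receptor known as a second autoreceptor, did not pass the test between any regions. Its medians were 1.46, 1.6 and 1.5 CPM in the NTS, CVLM and RVLM, and its levels ran from 0 to 6.65, 7.48 and 8.41 CPM. The log2 fold changes of the 6 tests ran from -0.64 to 0.06, with adjusted p from 0.213 to 0.954. Its spread was wide, with a SD as large as 1.96 to 2.19 CPM around means of 2.10 to 2.37 CPM (n = 46).

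Adra2b and Adrb1 were at the edge of detection. Adra2b, the third alpha-2 receptor, had medians of 0.181, 0.155 and 0.165 CPM in the NTS, CVLM and RVLM and no count at all in 12, 16 and 16 of 46 libraries. Adrb1, the beta-1 receptor, had medians of 0.158, 0.243 and 0.220 CPM and no count in 19, 18 and 20 of 46. Its counts ran from 0 to 32 per library. Neither gene was tested between regions.

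**Figure D3:**
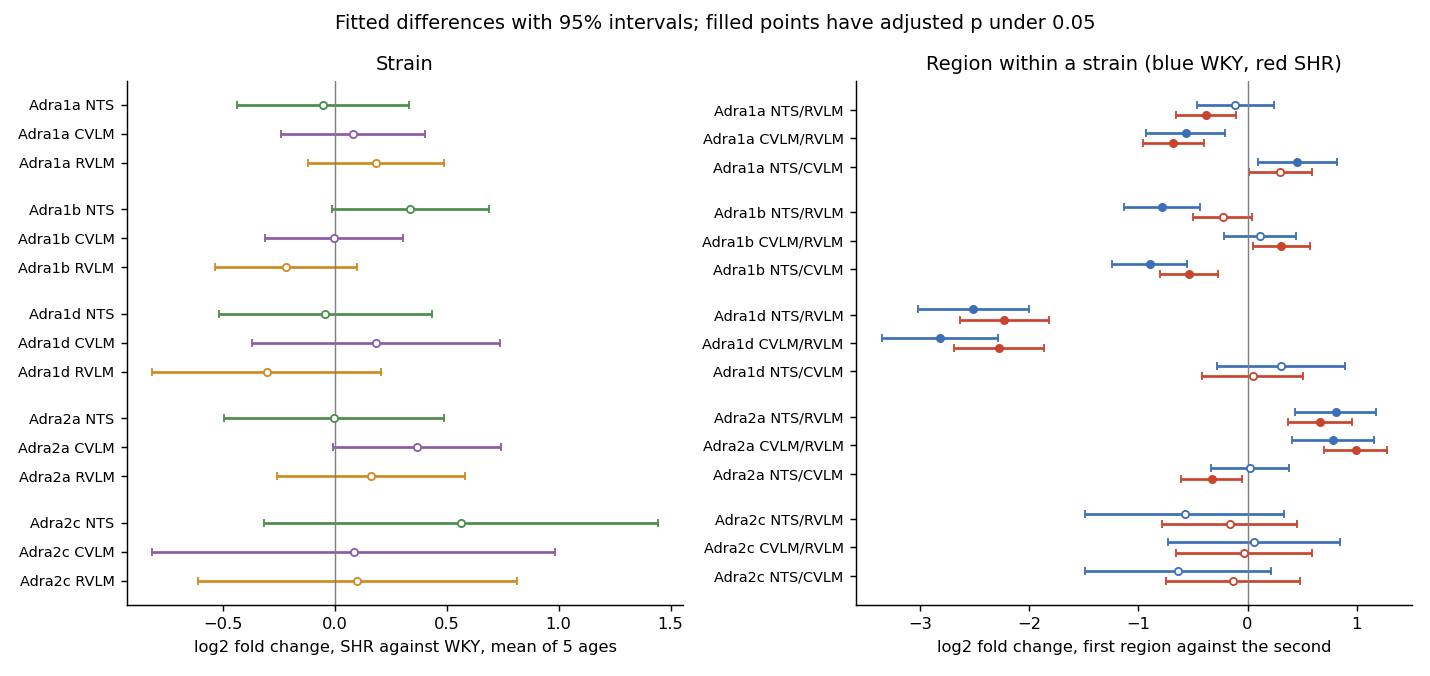
Fitted log2 fold changes (horizontal axes) with 95% intervals for the 5 tested receptor genes. Left, SHR against WKY averaged over 5 ages, coloured by region, and right, the first region against the second in WKY rats (blue) and SHRs (red). Filled points had an adjusted p under 0.05: none of 15 on the left and 17 of 30 on the right, with Adra1d farthest from 0.

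No tested receptor gene passed the test for a strain difference in its mean level. Averaged over the 5 ages, 0 of 15 tests of gene and region were called, and 0 of 15 had an unadjusted p under 0.05 by edgeR (DESeq2 also called 0), while 11.4% of all tests over all genes were called. The log2 fold changes of SHRs against WKY rats ran from -0.30 (Adra1d, RVLM) to 0.56 (Adra2c, NTS), with adjusted p from 0.241 to 0.998. The nearest to the threshold were Adra2a in the CVLM at 0.37 (adjusted p = 0.241) and Adra1b in the NTS at 0.34 (adjusted p = 0.257). The intervals in the plot of fitted differences show the changes these data leave possible, which were widest for Adra2c. The strain difference did not pass the test of varying between regions in any of 15 tests (0.795% of all tests were called), with 1 unadjusted p under 0.05 by edgeR (Adra1b, above) and 0 calls by limma voom.

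At single ages, 1 of 75 tests of gene, region and age was called, against 3.87% of all tests over all genes. It was Adra1d in the NTS at 8 wk, where 5.79% of genes were called. The WKY libraries had 0.826 and 1.77 CPM (library number 1) and 4.0, 2.52 and 3.42 CPM (number 2). The SHR libraries had 0.176, 1.39, 0.448, 0.304 and 1.2 CPM (all number 1). The 3 WKY libraries with number 2 lay above every SHR library, while the 2 with number 1 lay within or just above the SHR range. The log2 fold change was -1.84 (95% interval -2.90 to -0.79, adjusted p = 0.0284). With the library number as a term it was -1.47 (adjusted p = 0.321), and without the number 2 libraries outside 10 wk it was -0.89 (adjusted p = 0.650). The call was also lost when 8 wk was fitted alone (-1.81, adjusted p = 0.118) and when any of 6 rats was left out, namely WKY replicates 3, 4 and 5 and SHR replicates 1, 3 and 4 of 8 wk, with the highest adjusted p at 0.109 without WKY replicate 3. Between the groups, cholinergic and motor neuron markers moved with it: their sum was 198 to 585 CPM in these WKY libraries (median 420 CPM) and 181 to 232 CPM in the SHR libraries (median 194 CPM). Among the WKY libraries they did not follow it throughout. Replicates 1 and 2, lowest in Adra1d, had sums of 435 and 420 CPM. Replicates 3, 4 and 5 had 585, 198 and 328 CPM, of which 198 CPM lies inside the SHR range. The noradrenergic and adrenergic sum was 238 to 344 CPM in WKY rats and 137 to 233 CPM in SHRs, and 1 WKY library held choroid plexus markers at 1859 CPM against a group median of 3.38 CPM. The astrocyte marker sum was 4343 to 5939 CPM in WKY rats and 3426 to 4231 CPM in SHRs. That of pericytes and vascular smooth muscle went the other way, with 42.0 to 52.7 CPM in WKY rats and 58.5 to 76.6 CPM in SHRs. The parts of library number and of these cells in the difference were not tested beyond these fits.

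Other single-age differences had an unadjusted p under 0.05 and did not pass the adjusted threshold. At 8 wk these were Adra1d in the RVLM (log2 fold change -1.08, adjusted p = 0.174), Adra2a in the NTS (-1.22, adjusted p = 0.152) and Adra2c in the RVLM (-1.48, adjusted p = 0.165). At 24 wk it was Adra1b in the NTS (0.92, adjusted p = 0.342). The test of whether the strain difference varied with age called 0 of 15 by edgeR, with 1 unadjusted p under 0.05, that of Adra1d in the NTS (adjusted p = 0.378). Among all genes it called 0.0148%, and DESeq2 called 0 of the 10 receptor tests to which it gave an adjusted p.

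**Figure D4:**
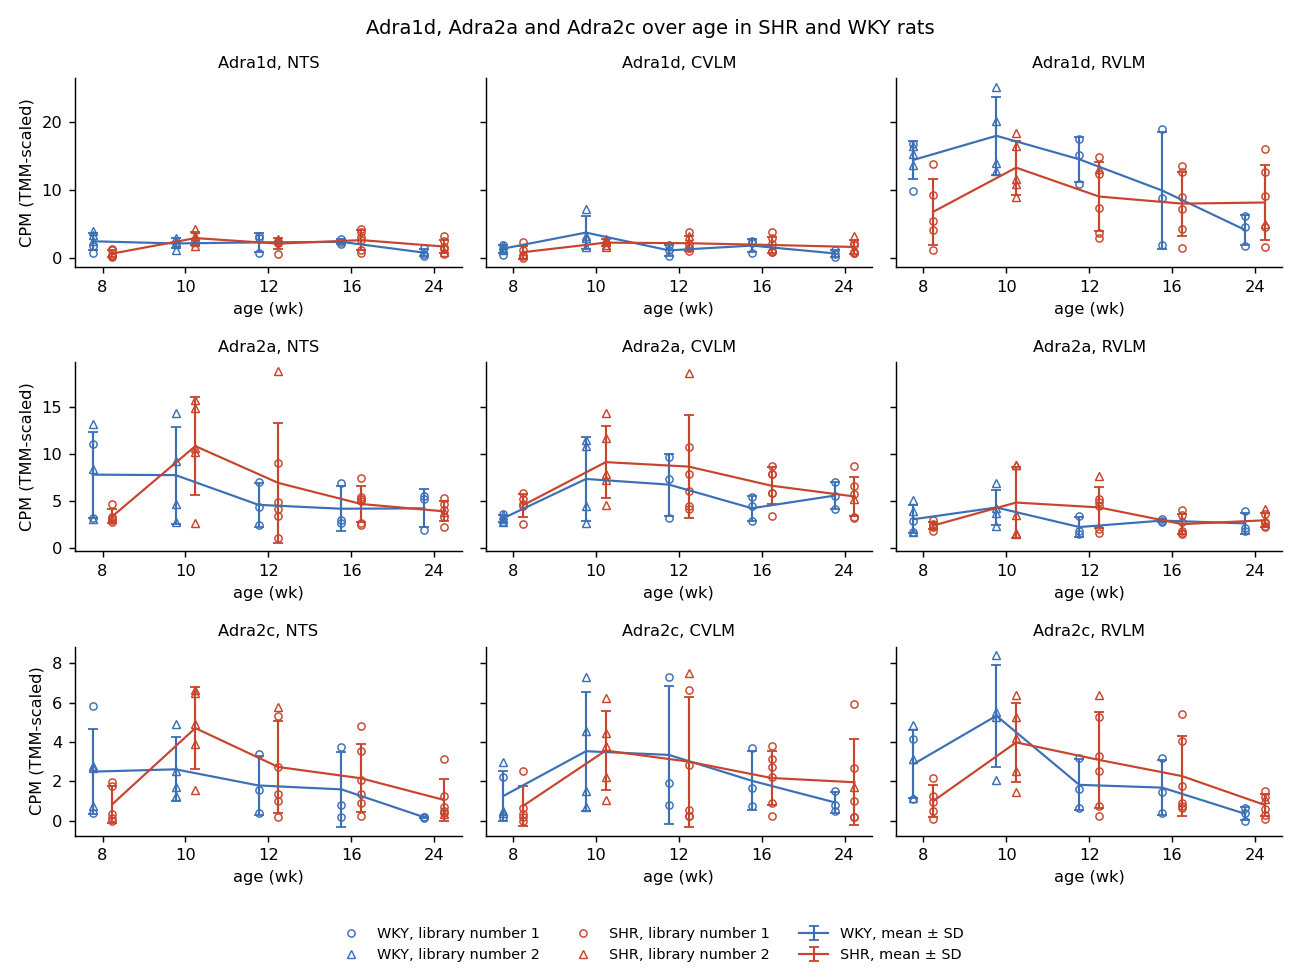
Adra1d, Adra2a and Adra2c (rows) in CPM over age in wk in the NTS, CVLM and RVLM (columns) of WKY rats (blue) and SHRs (red). Lines join the means with SD bars (n = 3 to 6 rats), circles are libraries with number 1 and triangles libraries with number 2. The highest levels of Adra2a in the NTS of SHRs, 14.9, 15.8 and 18.8 CPM, are triangles.

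Age within a strain was called in 4 of 30 tests of gene, region and strain, and 15.7% of such tests over all genes were called. Adra1d in the NTS of SHRs varied with age (adjusted p = 0.0256, quasi-likelihood test over the 4 differences from 8 wk). It rose from the 8 wk values above to 1.84, 4.32, 3.32, 2.38 and 3.03 CPM at 10 wk, all above the highest 8 wk library (log2 fold change 2.08, adjusted p = 0.00457). At 16 wk its lowest, median and highest levels were 0.716, 2.92 and 4.38 CPM, which overlapped with 8 wk (1.93, adjusted p = 0.0423). All libraries of SHRs at both 8 and 16 wk had the number 1. At 12 and 24 wk the log2 fold changes were 1.62 (adjusted p = 0.337) and 1.25 (adjusted p = 0.547). The cholinergic and motor neuron sum in the NTS of SHRs was 181 to 232 CPM at 8 wk. It was 243 to 475 CPM at 10 wk and 450 to 704 CPM at 16 wk, and overlapped with 8 wk at 12 and 24 wk. The noradrenergic and adrenergic sum was 137 to 233 CPM at 8 wk and 268 to 326 CPM at 10 wk, and overlapped with 8 wk at the other ages. The part of these cells in the age differences was not tested.

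Adra2a in the NTS of SHRs also varied with age (adjusted p = 0.0428). Its 8 wk libraries had 3.34, 4.64, 3.02, 2.73 and 3.15 CPM, and its 10 wk libraries, all of number 2, had 2.66, 14.9, 10.2, 10.7 and 15.8 CPM (log2 fold change 1.69, adjusted p = 0.0174). Of the 10 wk libraries, 4 lay above all those of 8 wk and 1 lay below them all. The single number 2 library of SHRs at 12 wk had 18.8 CPM, while the other 5 had 1.11 to 9.10 CPM. The marker sums given above for Adra1d belong to these same NTS libraries, and their part in the Adra2a difference was not tested. In the CVLM of SHRs the 10 wk difference was 1.01 (adjusted p = 0.0457), with an adjusted p of 0.123 for the test over all ages.

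Adra2c in the RVLM of SHRs was the third (adjusted p = 0.0353). It went from 0.942, 1.26, 0.108, 2.18 and 0.481 CPM at 8 wk to 4.20, 5.27, 1.48, 6.40 and 2.53 CPM at 10 wk (log2 fold change 2.0, adjusted p = 0.0341), with 1 library of 10 wk inside the 8 wk range. In the NTS of SHRs the 10 wk difference of Adra2c was 2.48 (adjusted p = 0.0242), with an adjusted p of 0.0646 over all ages. The fourth was Adra1d in the CVLM of WKY rats (adjusted p = 0.0404), with 1.62, 3.27, 3.05 and 7.19 CPM at 10 wk and 0.237, 0.689 and 1.26 CPM at 24 wk. Its groups at these 2 ages, chosen here as the most distant, did not overlap, while neither differed from 8 wk by the test (1.41 at 10 wk, adjusted p = 0.474, and -0.98 at 24 wk, adjusted p = 0.368). Without both libraries of conflicting age label its adjusted p was 0.0340. In the CVLM of WKY rats the cholinergic and motor neuron sum was 139 to 260 CPM at 10 wk and 61.8 to 116 CPM at 24 wk. At 10 wk, 1 of these WKY libraries held serotonergic markers at 155 CPM against a group median of 5.79 CPM. Replicate 4 of 10 wk, which had the 7.19 CPM of Adra1d, had the lowest noradrenergic and adrenergic sum of all CVLM libraries (171 CPM). The parts of these cells in the Adra1d difference were not tested.

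These age calls did not hold with library number as a term. With the number as a term, the adjusted p became 0.349 for Adra1d and 0.926 for Adra2a in the NTS of SHRs, 0.549 for Adra1d in the CVLM of WKY rats, and 0.729 for Adra2c in the RVLM of SHRs. The fitted effect of number 2 against 1 was itself not called, at 0.51 ± 0.46 SE on the log2 scale for Adra1d and 0.83 ± 0.43 SE for Adra2a in the NTS, 0.79 ± 0.46 SE for Adra1d in the CVLM and 0.68 ± 0.57 SE for Adra2c in the RVLM. Without the number 2 libraries outside 10 wk, which leaves 10 wk as it is, all 4 were called (adjusted p = 0.0180, 0.0182, 0.0486 and 0.0421 in the same order). Leaving out single rats also ended them. Adra1d in the NTS of SHRs was lost in 5 of 46 fits, without replicates 1, 3 and 4 of 8 wk and 2 and 5 of 10 wk (highest adjusted p 0.0706). Adra2a was lost in 16 of 46 (SHR replicates 1, 3, 4 and 5 of 8 wk, 2, 3, 4 and 5 of 10 wk, 3 of 12 wk, 1, 2, 4 and 5 of 16 wk and 1, 4 and 5 of 24 wk, highest 0.134). Adra2c in the RVLM was lost in 9 of 46 (SHR replicates 1, 3 and 5 of 8 wk, 1, 2 and 4 of 10 wk and 1, 3 and 5 of 24 wk, highest 0.0852). Adra1d in the CVLM was lost in 7 of 46 (WKY replicate 5 of 8 wk, 2, 3 and 4 of 10 wk, 3 of 12 wk and 1 and 2 of 24 wk), and its adjusted p was 0.262 without WKY replicate 4 of 10 wk.

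Several receptor genes of low level had different medians by library number when all ages were pooled, although number 2 holds all of 10 wk. The median of Adra2c in the RVLM was 1.03 CPM with number 1 and 4.52 CPM with number 2, and in the NTS 0.963 and 2.72 CPM. Adrb1 in the RVLM had medians of 0 and 0.624 CPM, with no count in 18 of 32 libraries of number 1 and 2 of 14 of number 2. Adra2b went the other way, with medians of 0.248 and 0 CPM in the RVLM and no count in 6 of 32 and 10 of 14 libraries. Adra2a in the NTS had medians of 4.12 and 9.73 CPM. In WKY rats of 8 wk, the group with several libraries of each number, genes differed in this. Adra2c in the NTS had means of 3.12 CPM for number 1 (n = 2) and 2.07 CPM for number 2 (n = 3). Its ranges overlapped, and its fitted number effect in the NTS was 0.048 on the log2 scale. Adra1d in the NTS ran from 0.826 to 1.77 CPM for number 1 and 2.52 to 4.0 CPM for number 2. Those ranges did not overlap, and its fitted number effect was 0.51. Over the 15 gene and region tests, the fitted effects ran from -0.82 (Adra1a, NTS) to 0.83 (Adra2a, NTS). When number and group were fitted together, the number's own effect was called for 0 of 15 gene and region tests by edgeR (adjusted p 0.0517 to 0.970, 4 with an unadjusted p under 0.05), while over all genes it was called for 25.6%, 21.6% and 16.4% in the NTS, CVLM and RVLM.

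Within groups, several receptor genes varied together from rat to rat. After the mean of each strain and age group was removed, r over 46 libraries between log2 levels of Adra2a and Adra2c was 0.78, 0.80 and 0.55 in the NTS, CVLM and RVLM. Between Adra2c and Adrb1 it was 0.74, 0.82 and 0.80, and between Adra2a and Adrb1 it was 0.77, 0.71 and 0.65. Adra1d gave 0.56, 0.62 and 0.74 with Adra2c and 0.44, 0.56 and 0.45 with Adrb1, which had no count in 18 to 20 of the 46 libraries. The libraries share depth and RNA quality as well as rat, so these values are a description. In the NTS the share of mitochondrial counts, 3.27% to 8.05% over the libraries, had r of -0.44 with Adra2a and -0.48 with Adra2c after the same removal. In the CVLM the same values were -0.017 and -0.049, and in the RVLM -0.29 and -0.27. The part of RNA quality was not tested.

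Over the 30 group means of region, strain and age, the genes whose log2 level ran most alike with Adra1d were Slc29a4, a monoamine transporter (Pearson's r 0.98), Ret, a receptor for glial cell line-derived growth factors (0.97), and Sarm1 (0.97). Within single regions r was 0.87 to 0.95 for these 3, 0.64 to 0.97 for those of Adra2a, 0.93 to 0.98 for those of Adra2c, 0.57 to 0.90 for those of Adra1b and 0.067 to 0.71 for those of Adra1a, with the lowest for Trpm3 in the NTS. For Adra2a they were Sipa1l2 (0.90), Zdhhc14 (0.88) and Slc2a13 (0.87). For Adra2c they were Suds3, Prkaca, a catalytic subunit of protein kinase A, and Ctbp1 (0.96 each). For Adra1b they were Clta, a clathrin light chain, Mfsd5 and RGD1560398 (0.86, 0.85 and 0.85), and for Adra1a Ephb6, Trpm3 and Cdh6 (0.81 each). Each r is over 30 group means that share libraries, and was the highest of all tested genes by choice.

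Around the receptors, the signalling genes showed few strain differences. In 8 lists of 53 genes with the ligand genes included, the strain mean was called higher and lower in 2 and 1 of 51 tested in the NTS, 2 and 2 of 51 in the CVLM, and 1 and 1 of 50 in the RVLM, below the 11.4% of all tests. Gnas, the Gs alpha subunit, was listed under 2 identifiers, both counted. Gna14, a Gq-family alpha subunit, was higher in SHRs in all 3 regions (log2 fold change 0.41, 0.46 and 0.57, adjusted p = 0.0117, 0.00106 and 3.39e-05 in the NTS, CVLM and RVLM). Adcy6, an adenylyl cyclase, was higher in the NTS (0.48, adjusted p = 0.00917) and CVLM (0.43, adjusted p = 0.00231), with 0.30 in the RVLM (adjusted p = 0.109). Adcy5, another cyclase, was lower in the NTS (-0.29, adjusted p = 0.0215) and CVLM (-0.28, adjusted p = 0.000634), with -0.20 in the RVLM (adjusted p = 0.127). Gng11, a gamma subunit, was lower in the CVLM (-0.34, adjusted p = 0.0146) and RVLM (-0.41, adjusted p = 0.0403). Of the ligand genes, 0 of 10, 10 and 9 were called for strain by edgeR in the NTS, CVLM and RVLM. No gene for the Gi and Go subunits, the Gs subunits, phospholipase C beta or the receptor kinases and arrestins was called for strain in any region by edgeR.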

How the data were processed

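Total RNA of the NTS, CVLM and RVLM of 46 rats was sequenced, 1 library per rat and region. The authors aligned the reads to rn6 with STAR within RSEM at default settings and deposited expected counts per gene without normalization, in 1 table per region. The study's methods name ComBat_seq for batch effects, and 5.02%, 4.95% and 4.88% of the deposited expected counts in the NTS, CVLM and RVLM were not whole. Whether the adjustment is in these tables was not stated. All columns matched a sample and 0 were left out. In 2 CVLM libraries (WKY and SHR replicate 5 of 8 wk) the title gives 8 wk and the age label 10 wk, and they were placed at 8 wk.

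Expected counts were rounded to whole numbers. Genes with a highest rlog value of at least 3.5 in a region were tested there, as in the study's methods: 13793, 13408 and 13411 genes in the NTS, CVLM and RVLM, and 13116 in the fit over all 3 regions. The tests were edgeR (4.0.16, R 4.3.3) quasi-likelihood tests with TMM scaling over groups of strain and age, fitted to all 46 libraries of a region, and to the libraries of all 3 regions with the rat as a block for the region contrasts. A call is a Benjamini-Hochberg adjusted p under 0.05 over all genes. The same replicate number in different regions is the same rat. Levels are CPM on TMM-scaled library sizes, and correlations used log2(CPM + 0.5). No 2 libraries of a group agreed within counting error. The scripts were tested on simulated data. Alternatives included RLE scaling, DESeq2 1.42.0, limma 3.58.1, no filter, library number as a term, and leaving out each rat. P-values of the strain and age tests measure the spread between rats of a group. Those of the region tests, with the rat as a block, measure how region differences vary between rats. Depth limits the low genes.

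All 7 receptor genes are named. Other genes are named by rule: the 3 genes most alike with each tested receptor over 30 group means, the genes of each pathway list called for strain in at least 1 region (at most 3 per list), and Th, Dbh, Pnmt and Slc6a2. Slc18a2, Mnx1 and other markers come from fixed cell type lists. The receptors and lists were chosen with earlier results of these data known.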

Additional observations from a re-analysis of the deposited data

Results flagged for a closer look

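In 8 of 145 groups of 4 to 6 libraries, 1 library lay apart from the others by more than Dixon's 95% limit for its receptor gene. For normally distributed values, chance gives about 1 such group in 20. That rate does not apply where all libraries but 1 were at 0, since the rule then flags the remaining library at any level. This was so for Adrb1 in SHRs of 8 wk (CVLM and RVLM) and Adra2b in WKY rats of 10 wk (NTS).

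In SHRs of 8 wk, the CVLM library of replicate 5 had Adra2c at 2.54 CPM against 0 to 0.648 CPM in the others, and Adrb1 at 0.376 CPM where the others were at 0. It is also 1 of the 2 CVLM libraries whose title and age label disagree. The RVLM library of replicate 4 had Adrb1 at 0.218 CPM where the others were at 0, from a count of 2.

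In the NTS at 10 wk, Adrb1 was at 0 in SHR replicate 1 against 0.921 to 1.13 CPM in the others, and Adra2b was at 0.107 CPM in WKY replicate 4 where the others were at 0. SHR replicate 4 of 12 wk had Adra1d at 0.650 CPM in the NTS against 2.20 to 2.89 CPM in the others. SHR replicate 2 of 24 wk had Adra1b at 2.75 CPM in the NTS against 1.61 to 1.91 CPM, and Adra2c at 3.15 CPM against 0.335 to 1.26 CPM.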

How the results depend on the processing

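The count of region calls, 17 of 30, was 17 with RLE scaling, 16 with limma voom, 15 without the rats of conflicting age, 15 with number 1 libraries alone, 16 without the 2 rats lowest in RVLM cholinergic markers, and 15 to 17 in limma voom without each rat in turn. Without the animal as replicate block it was 15. The Adra1d and Adra2a calls against the RVLM held in all 46 voom fits without 1 rat. Region calls lost were Adra1a between CVLM and RVLM of WKY rats (adjusted p = 0.0719 with number 1 libraries alone), Adra2a between NTS and CVLM of SHRs (0.186 without the block, 0.0557 by voom, 0.0653 without the rats of conflicting age), Adra1b between CVLM and RVLM of SHRs (0.0552 without the block, 0.0688 without the rats of conflicting age, 0.0683 with number 1 alone, and lost in 17 of 46 voom leave-one-out fits, those without SHR replicates 2, 3 and 5 of 8 wk, 3, 4 and 5 of 10 wk, 1, 3, 4 and 5 of 12 wk, 1, 3, 4 and 6 of 16 wk and 2, 3 and 5 of 24 wk, highest 0.0980) and Adra1a between NTS and CVLM of WKY rats (lost in 7 of 46 such fits, without WKY replicates 2 and 5 of 8 wk, 2 of 10 wk, 2 and 3 of 12 wk, 2 of 24 wk and 2 of 16 wk, the last with 0.179). The strain means, the variation of strain with age and that with region had 0 calls by every alternative run.

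The single strain call at 8 wk became 0 with library number as a term, without the number 2 libraries outside 10 wk and with each age fitted on its own, and the count over all ages ran from 0 to 2 in the leave-one-out fits (2 without WKY replicate 2 of 24 wk). Adra1d in the NTS at 8 wk held with RLE scaling (adjusted p = 0.0295), DESeq2 (0.00963) and no filter (0.0344). The 4 age calls became 2 with no filter and 0 with library number as a term, 6 by DESeq2, and 1 to 6 in the leave-one-out fits (1 without SHR replicate 1 or 3 of 8 wk or SHR replicate 2 of 10 wk, 6 without SHR replicate 4 of 12 wk). The 2 with no filter were Adra1d in the NTS of SHRs and Adra2b in the CVLM of WKY rats (0.0297).

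No label pairs SHRs with WKY rats by replicate number: over 54 pairs of like-numbered libraries the correlation of deviations ran from -0.379 to 0.599, with 33 over 0.1. With that number as a replicate block within age, the strain calls were 1 at single ages (Adra1d, -1.86, adjusted p = 0.0336) and 0 for the mean and for variation with age. Uncalled values near 0 changed sign. Under the block these were Adra1a (0.089), Adra1d (0.045) and Adra2a (0.023) in the NTS, Adra2c in the CVLM (-0.041) and Adra2c in the RVLM (-0.047). With library number as a term they were Adra1d (0.00076) and Adra2a (0.0062) in the NTS, and without the number 2 libraries outside 10 wk Adra1d in the NTS (0.16). Adra2c in the CVLM was -0.23 without the libraries of conflicting age. Adra1b in the CVLM was 0.0022 with RLE, 0.0041 by DESeq2 and 0.018 with no filter. Without each rat in turn, values ran from -0.12 to 0.058 for Adra1a, -0.12 to 0.077 for Adra1d and -0.13 to 0.11 for Adra2a in the NTS, from -0.053 to 0.035 for Adra1b and -0.19 to 0.35 for Adra2c in the CVLM, and from -0.014 to 0.28 for Adra2c in the RVLM.

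Between regions, with number 1 libraries alone, Adra1a was 0.056 for NTS against RVLM and Adra2a -0.019 for NTS against CVLM in WKY rats, and Adra2c was 0.020 for CVLM against RVLM in SHRs. Adra2c in SHRs was 0.0044 (NTS against RVLM) and 0.13 (CVLM against RVLM) with no replicate block, and 0.017 by voom and 0.012 without the rats of conflicting age (NTS against CVLM). It was -0.20 for CVLM against RVLM in WKY rats without the 2 rats lowest in RVLM cholinergic markers. In limma voom without each rat in turn, it ran from -0.30 to 0.038 (NTS against RVLM) and -0.15 to 0.13 (NTS against CVLM) in SHRs and from -0.25 to 0.19 (CVLM against RVLM) in WKY rats, and Adra2a ran from -0.077 to 0.15 in WKY rats (NTS against CVLM). The causes were not tested. CPM on plain library sums changed the 21 median levels by a factor of 0.921 to 1.08.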
